A study of Mus musculus with 30 samples.

Results

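The subunits of the mitochondrial respiratory chain and of ATP synthase were followed in the kidney of ageing mice, by complex, with age and under a calorie-restricted diet. Members were taken by name: every probe set of 2 array tables whose annotated symbol was that of a subunit or assembly factor of complex I (Nduf), of complex II (Sdha to Sdhd), of complex III (Uqcr and Cyc1), of complex IV (Cox4 to Cox8), of complex V (Atp5), or of cytochrome c (Cycs). This gave 68 of 13041 probe sets, for 59 of 6136 named genes. Of the 68, 24 belonged to complex I, 3 to complex II, 8 to complex III, 16 to complex IV, 15 to complex V and 2 to cytochrome c. The choice went by names, and was made with earlier results of these data known.

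Total RNA of whole kidney was hybridised to 1-colour short-oligonucleotide arrays. The 3 groups of 5 C57BL/6 mice were control-fed mice aged 5 months (young controls), control-fed mice aged 30 months (old controls) and calorie-restricted mice aged 30 months. C57BL/6 is an inbred strain, and the diet was a reduction of food intake. Each of the 15 numbers in the labels appears once per array type, so there were 30 samples. Nothing in the labels states that a number is one mouse. The word animal is used for them below, and p-values measure the spread between these samples, which may be technical. The labels name ageing (old against young controls) and the diet (calorie-restricted against old controls) as the comparisons. Calorie-restricted against young controls was added to show what difference remained. The age and diet comparisons share the old controls, and the third shares its groups with both, so the 3 values of a gene are given side by side and are not independent of one another.

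The respiratory chain passes electrons from NADH through complex I, or from succinate through complex II, by way of ubiquinone to complex III, then through cytochrome c to complex IV, where oxygen is reduced. Complexes I, III and IV pump protons across the inner mitochondrial membrane, and complex V uses the proton gradient to make ATP. Kidney tubules, above all the proximal tubule, are rich in mitochondria, because reabsorption of sodium and solutes is driven by ATP. Every member described here is encoded in the nucleus, and no probe set was annotated to a gene of the mitochondrial genome.

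In these arrays almost all measured subunits had lower estimates in old than in young kidney, by a modest amount each. A probe set was tested if its scaled intensity lay above the background floor of its table on at least 5 of 15 arrays, which held for 54 members of 50 genes, and 50 of the 54 were above the floor on all 15 arrays. The log2 age difference was negative for 51 of 54 tested members, against 55.2% of all 4518 tested probe sets, and its median was -0.41 against -0.04. Of the 4518, 3382 had no tied values in old controls, and values raised to the floor are tied. Values at the floor understate differences, so the 2 medians are not matched for intensity. Few single members passed the test. With limma and Benjamini-Hochberg adjustment over all tested probe sets at 0.05, 2 of 54 members fell with age, against a percent called of 2.17 over all tested probe sets, and 0 rose, against 2.99. At an unadjusted p under 0.05 the counts were 27 lower and 0 higher, where 9.32% and 7.04% of all tested probe sets lay. The 2 that passed were Ndufb3, an accessory subunit of complex I, and Cycs, cytochrome c itself. With the animal number as a block 5 members were lower with age, where 2.52% of all tested probe sets were. The number of animals, 5 a group, limits the precision of each estimate.

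The diet estimates were mostly positive and smaller. The log2 difference of calorie-restricted from old controls was above 0 for 46 of 54 tested members, against 54.7% of all tested probe sets, with a median of 0.13 against 0.03. The sign of 24 of the 54 diet estimates changed in at least 1 alternative fit. By the same test 1 member rose under the diet, Cox7a2l, where the percent called was 0.907, and 0 fell, where it was 1.7. At an unadjusted p under 0.05 there were 5 higher and 0 lower, where 7.9% and 6.73% of all tested probe sets lay. Against young controls, calorie-restricted kidneys had a median log2 difference of -0.24, beside -0.01 for all tested probe sets, with 44 of 54 estimates negative. There 2 probe sets were lower by the test, both of Cycs, where the percent called was 2.77, and 1 was higher, Cox7a2l, where it was 2.94. Groups of 5 that did not overlap at all were counted as well. Of the 54 members, 5 were lower with age without overlap (Ndufb3, Ndufs3, Atp5a1, Atp5c1 and Atp5md), where the percent was 3.03 over all tested probe sets, and 0 were higher, where it was 3.43. Under the diet 1 was higher (Cox7a2l, percent over all 1.79) and 0 were lower (2.37). Against young controls 2 were lower (Atp5k and Cycs, 3.52) and 1 was higher (Cox7a2l, 3.72). In whole kidney, fewer cells of a type and less RNA per cell cannot be told apart.

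**Figure D1:**
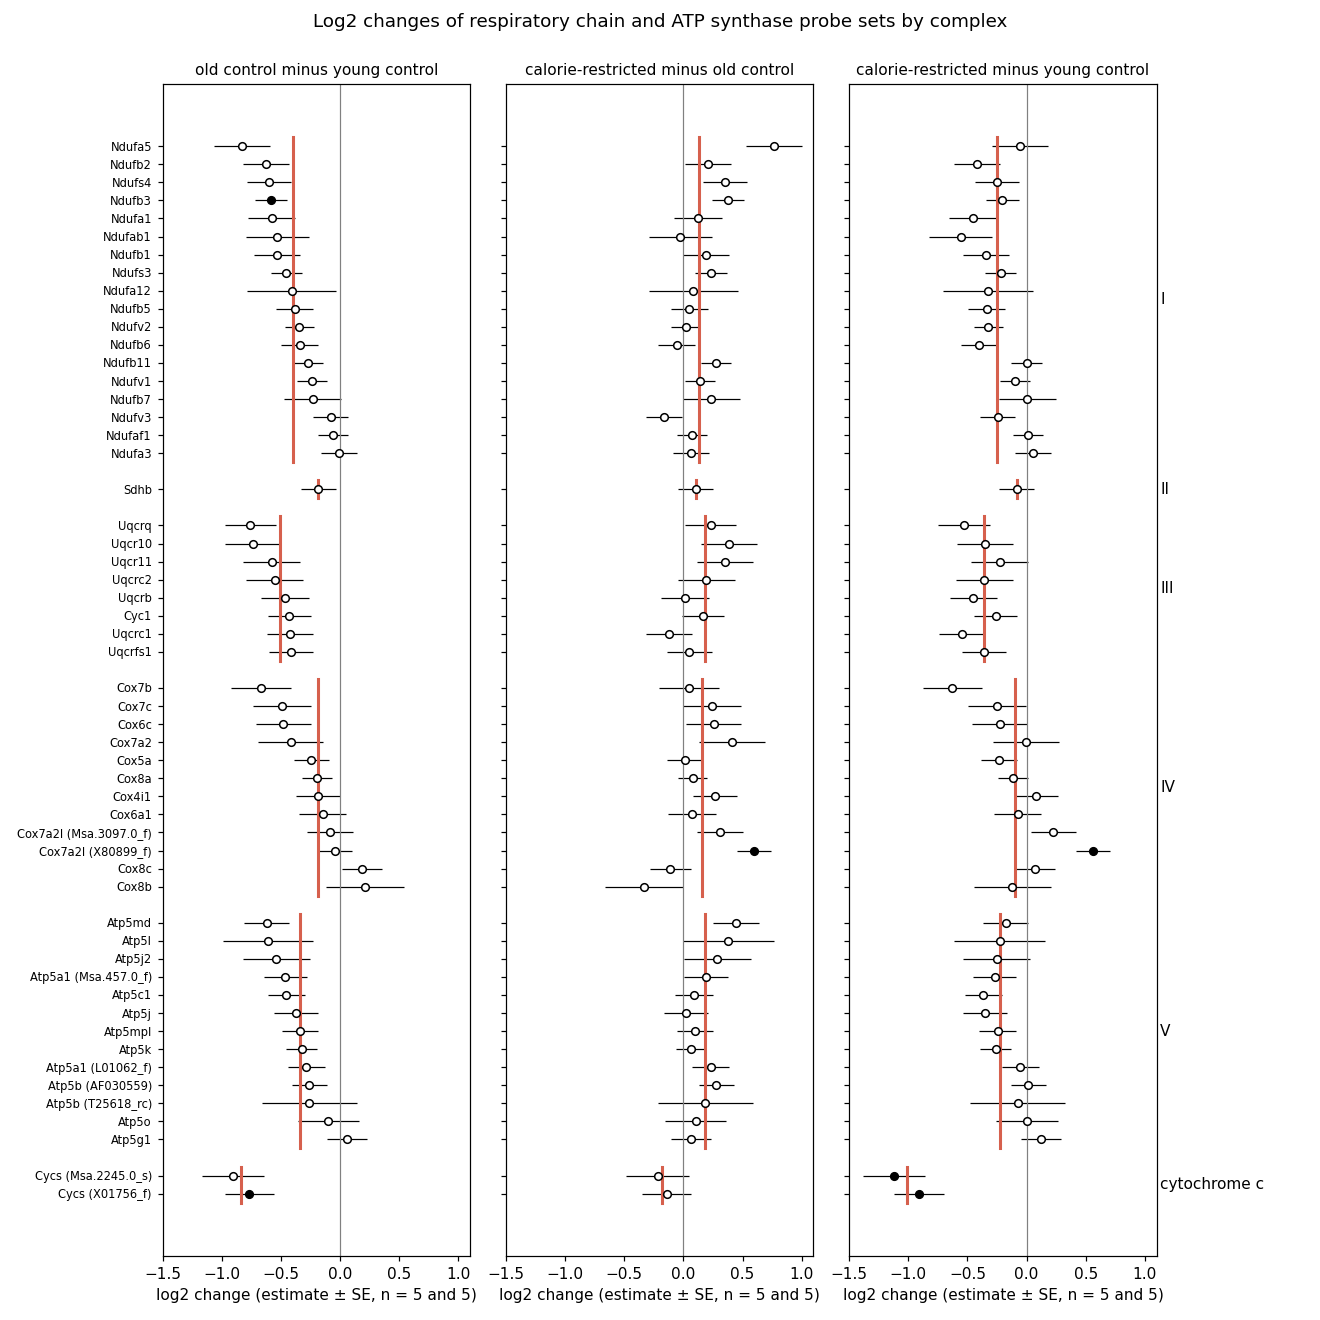
Log2 changes (estimate ± SE, 5 animals a group) of the 54 tested probe sets in the 3 comparisons, grouped by complex and ordered by the age change. Filled points passed the adjusted p of 0.05, and red lines mark the median of a complex. Most age estimates lie left of 0, most diet estimates lie a shorter way to the right, and the 2 Cycs probe sets lie left of 0 in all panels.

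The medians of the complexes were set side by side. With age the median log2 difference was -0.40 over the 18 tested probe sets of complex I, -0.51 over 8 of complex III, -0.19 over 12 of complex IV, -0.34 over 13 of complex V and -0.84 over the 2 of cytochrome c, and the 1 of complex II stood at -0.19. Under the diet the medians were close to one another for complexes I to V, at 0.13, 0.10, 0.18, 0.16 and 0.19 in that order, and negative for cytochrome c at -0.18. The difference that remained between calorie-restricted and young kidney was thus -0.25 for complex I, -0.08 for complex II, -0.36 for complex III, -0.10 for complex IV, -0.23 for complex V and -1.01 for cytochrome c. No difference between complexes was tested, because the members share animals and arrays.

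Animals numbered 1 to 3 and those numbered 4 and 5 differed across many probe sets in all groups, and the labels give no reason. Each median was therefore also taken within the numbers. For all 54 members the age median was -0.36 in numbers 1 to 3 and -0.40 in numbers 4 and 5, and the diet median was 0.12 and 0.19. For complex III the diet median was 0.14 in numbers 1 to 3 and 0.35 in numbers 4 and 5, and for complex I it was 0.07 and 0.21. For cytochrome c it was -0.41 and 0.17, so the sign of its diet estimate depended on the numbers. The age medians were negative in both sets for every complex.

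**Figure D2:**
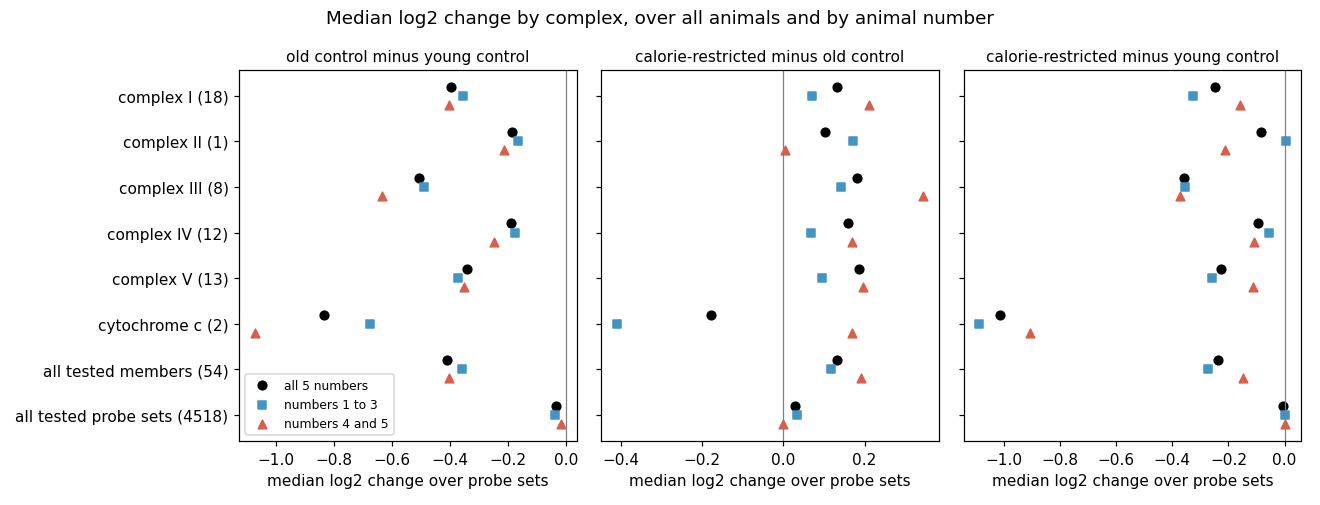
Median log2 change over the tested probe sets of each complex (number of probe sets in brackets) in the 3 comparisons, for all 5 animal numbers (circles), numbers 1 to 3 (squares) and numbers 4 and 5 (triangles). Age medians of the members lie between -0.17 and -1.07, whereas those of all tested probe sets lie near 0, and the diet median of cytochrome c is negative in one set of numbers and positive in the other.

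The mean over all 54 members of the log2 level, taken for each animal against the young mean, showed the same order by group. In young controls 1 to 5 it was -0.29, -0.02, 0.05, 0.17 and 0.10. In old controls 1 to 5 it was -0.33, -0.56, -0.40, -0.20 and -0.40. In calorie-restricted animals 1 to 5 it was -0.32, -0.16, -0.54, -0.08 and -0.03. Old controls lay below 4 of the 5 young controls and overlapped with young control 1, and calorie-restricted animals reached from close to the lowest old control up to young control 2. The same mean over all tested probe sets stayed between -0.03 and 0.04 in every animal. For complex III the mean ran from -0.37 to 0.34 in young controls, from -0.96 to -0.21 in old controls and from -0.85 to -0.08 in calorie-restricted animals.

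Certain animals were low across many members at once. Young control 1 had the lowest level of its group for 33 of 54 members, old control 2 for 24 and calorie-restricted animal 3 for 27. Over tested probe sets without tied values these animals were the lowest of their group in 22.2%, 24.6% and 28.2%. Without calorie-restricted animal 3 the diet median over members was 0.22 and the median against young controls was -0.14, in place of 0.13 and -0.24. Without young control 1, 7 members were lower with age, without calorie-restricted animal 3, 8 were, since that animal enters the shared estimate of the spread, and without old control 5 or young control 3, 0 were. The share of all tested probe sets called in these fits is not given here, so the counts are not read as particular to the members.

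Complex I, the entry point for NADH, had 24 probe sets of 22 genes, of which 18 were tested. Its 1 call with age was Ndufb3, an accessory subunit of the membrane arm (probe set aa711217_s_at). Its scaled intensity was 32284, 34459, 37613, 34860 and 36662 in young controls 1 to 5. In old controls it was 28328, 19972, 25067, 25112 and 19838, and in calorie-restricted animals 34546, 36620, 27180, 25657 and 29719. All old values lay below all young values, and calorie-restricted animals 1 and 2 lay within the young range while animals 3 and 4 lay within the old range and animal 5 between the 2. The mean fell from 35176 ± 2069 (SD, n = 5) to 23663 ± 3677, a ratio of 0.673 and a log2 difference of -0.58 ± 0.14 (SE, limma adjusted p = 0.0167). The diet estimate was 0.38 ± 0.14 (limma adjusted p = 0.202) and the difference from young controls -0.21 ± 0.14 (limma adjusted p = 0.472). The age call was lost, just above the threshold, without old control 5 (limma adjusted p = 0.0505) and without young control 3.

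Ndufa5, an accessory subunit of the matrix arm, had the largest age difference of complex I (probe set aa543494_s_at). It read 6869, 9341, 9210, 12926 and 12627 in young controls 1 to 5 and 7122, 4330, 5272, 7636 and 4416 in old controls. In calorie-restricted animals it read 10035, 10142, 5672, 11164 and 12187. Calorie-restricted animal 3 lay among the old controls and the other 4 lay above all old controls, while young control 1 lay inside the old range. The log2 age difference was -0.83 ± 0.24 (limma adjusted p = 0.0545), the diet difference 0.77 ± 0.24 (limma adjusted p = 0.111) and the difference from young controls -0.06 ± 0.24 (limma adjusted p = 0.941), so neither of the first 2 passed. With the animal number as a block the age difference passed (limma adjusted p = 0.0395). Without calorie-restricted animal 3 the age and diet differences both passed. They also passed in a fit that held the 2 sets of numbers apart, at limma adjusted p of 0.0193 and 0.0404.

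At the other end stood Ndufa3, a small accessory subunit of the membrane arm (probe set aa269772_s_at). It read 41624, 50046, 50680, 67676 and 67223 in young controls 1 to 5, 49613, 51570, 60743, 54779 and 54063 in old controls, and 49326, 65649, 50022, 66283 and 53868 in calorie-restricted animals. The 3 groups overlapped throughout, with a log2 age difference of -0.01 ± 0.15 (limma adjusted p = 0.980). Young controls 4 and 5 lay well above young controls 1 to 3.

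The remaining tested genes of complex I had negative age estimates throughout, and none passed. Among the core subunits, of which Ndufv1 holds the NADH site, the log2 age difference was -0.45 for Ndufs3, -0.34 for Ndufv2 and -0.24 for Ndufv1. Ndufs3 had 5 old values that lay below all young values (limma adjusted p = 0.0601). Among accessory subunits it was -0.62 for Ndufb2, -0.60 for Ndufs4, -0.58 for Ndufa1, -0.53 for Ndufb1, -0.53 for Ndufab1 (also the mitochondrial acyl carrier protein), -0.41 for Ndufa12, -0.39 for Ndufb5, -0.34 for Ndufb6, -0.27 for Ndufb11, -0.23 for Ndufb7 and -0.08 for Ndufv3. For Ndufaf1, an assembly factor that is not part of the finished complex, it was -0.06, with values above the floor on 10 of 15 arrays.

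None of the same genes passed under the diet, and their estimates ran from 0.35 to -0.16. They were 0.35 for Ndufs4, 0.27 for Ndufb11, 0.24 for Ndufb7, 0.23 for Ndufs3, 0.21 for Ndufb2, 0.19 for Ndufb1, 0.14 for Ndufv1 and 0.12 for Ndufa1. They were 0.08 for Ndufa12, 0.07 for Ndufaf1, 0.07 for Ndufa3, 0.05 for Ndufb5, 0.02 for Ndufv2, -0.02 for Ndufab1, -0.06 for Ndufb6 and -0.16 for Ndufv3. Against young controls, Ndufab1 stood at -0.56, Ndufa1 at -0.45, Ndufb2 at -0.42 and Ndufb6 at -0.40, whereas Ndufb11 and Ndufb7 stood within 0.01 of 0. Not tested were Ndufa11 (above the floor on 3 arrays), Ndufa10 (1 array for one probe set and 0 for the other), and Ndufb10, Ndufaf4 and a further probe set of Ndufaf1 (0 arrays each).

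Complex II, succinate dehydrogenase, is also an enzyme of the tricarboxylic acid cycle. It had 3 probe sets, and only Sdhb, the iron-sulphur subunit, was tested (probe set aa245912_f_at). Sdhb read 17528, 19446, 20426, 27895 and 21771 in young controls 1 to 5, 19402, 14411, 17604, 21762 and 20732 in old controls, and 18028, 20362, 19109, 19389 and 23355 in calorie-restricted animals. The groups overlapped, and the log2 differences were -0.19 ± 0.15 with age (limma adjusted p = 0.602), 0.10 with the diet and -0.08 against young controls. Sdhc, a membrane anchor, was above the floor on 4 arrays and Sdhd, the other anchor, on 0.

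All 8 probe sets of complex III, the cytochrome bc1 complex, were tested, and all 8 age estimates were negative, from -0.76 to -0.41, with none past the adjusted threshold. The largest was that of Uqcrq, a small subunit (probe set aa271482_s_at). It read 22107, 26763, 30292, 39292 and 35104 in young controls 1 to 5, 20882, 12423, 16624, 23860 and 17355 in old controls, and 18111, 20870, 14322, 28700 and 25523 in calorie-restricted animals. Old control 4 lay above young control 1, and every other old value lay below all young values. The ratio of means was 0.594 and the log2 difference -0.76 ± 0.22 (limma adjusted p = 0.0561), with 0.23 under the diet (limma adjusted p = 0.675) and -0.53 against young controls (limma adjusted p = 0.206). With the animal number as a block the age difference passed (limma adjusted p = 0.0170).

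The other small subunits, Uqcr10, Uqcr11 and Uqcrb, had log2 age differences of -0.74, -0.58 and -0.46. The core proteins Uqcrc2 and Uqcrc1, which face the matrix, had -0.55 and -0.43. Cyc1, the cytochrome c1 subunit that hands electrons to cytochrome c, read 36922, 38005, 43152, 58733 and 60096 in young controls 1 to 5, 35290, 27100, 30376, 42754 and 38986 in old controls, and 35876, 38634, 30153, 46257 and 44544 in calorie-restricted animals. In all 3 groups animals 4 and 5 were the highest, and the groups overlapped, with a log2 age difference of -0.43 ± 0.18 (limma adjusted p = 0.238), 0.17 under the diet and -0.26 against young controls.

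Uqcrfs1, the Rieske iron-sulphur protein and the catalytic partner of Cyc1, had the smallest age difference of the complex. It read 24906, 26673, 26890, 32722 and 35763 in young controls 1 to 5, 24280, 17257, 16379, 26527 and 27575 in old controls, and 22875, 24790, 16349, 22275 and 29096 in calorie-restricted animals. The log2 differences were -0.41 ± 0.19 with age (limma adjusted p = 0.278), 0.05 with the diet and -0.36 against young controls, and old and young values overlapped. Under the diet the other estimates were 0.38 for Uqcr10, 0.35 for Uqcr11, 0.19 for Uqcrc2, 0.01 for Uqcrb and -0.12 for Uqcrc1. Against young controls they were -0.35, -0.23, -0.36, -0.45 and -0.54 in the same order.

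Complex IV, cytochrome c oxidase, had 16 probe sets of 12 genes by symbol, of which 12 were tested. One of these genes, Cox7a2l, is known as a factor that joins complexes III and IV into supercomplexes, and C57BL/6 mice carry a shortened form of it. Its probe set X80899_f_at was the 1 member higher under the diet. It read 3766, 4861, 6146, 5954 and 5732 in young controls 1 to 5, 4668, 5250, 5114, 6180 and 4326 in old controls, and 7703, 7722, 8050, 7511 and 7466 in calorie-restricted animals. All 5 calorie-restricted values lay above all values of both other groups, which overlapped with each other. The mean rose from 5108 ± 703 (SD, n = 5) in old controls to 7690 ± 231, a ratio of 1.51, with a log2 difference of 0.60 ± 0.14 (limma adjusted p = 0.0365), and the difference from young controls was 0.56 ± 0.14 (limma adjusted p = 0.0285). The age difference was -0.04 ± 0.14 (limma adjusted p = 0.932).

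The second probe set of Cox7a2l, on the same array type, showed less. It read 5544, 6107, 6266, 8979 and 10151 in young controls 1 to 5, 5636, 5982, 6199, 7824 and 8838 in old controls, and 9267, 9457, 6224, 8778 and 8818 in calorie-restricted animals. Calorie-restricted animals 1 and 2 were above all old controls and the other 3 were not, and the diet difference was 0.31 ± 0.19 (limma adjusted p = 0.488). The diet call of the first probe set was lost when any 1 of 9 animals was left out, each of the 5 calorie-restricted animals and old controls 1, 2, 3 and 5, with limma adjusted p of 0.0567 to 0.0816, while the log2 difference stayed between 0.54 and 0.67 over all 15 such fits. The call against young controls was lost without any of the calorie-restricted animals and without young control 1 or 2, with limma adjusted p of 0.0524 to 0.0763. In numbers 1 to 3 the diet difference of the first probe set was 0.64, and in numbers 4 and 5 it was 0.53.

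Cox7b, a small nuclear-encoded subunit, had the largest age difference of complex IV. Its probe set aa521794_s_at read 9864, 12590, 14448, 6838 and 6926 in young controls 1 to 5, 9514, 5639, 5949, 6336 and 4098 in old controls, and 7264, 8014, 5134, 4518 and 7175 in calorie-restricted animals. Here young controls 4 and 5 were below young controls 1 to 3, the reverse of Cyc1 and Ndufa3. The log2 differences were -0.67 ± 0.25 with age (limma adjusted p = 0.176), 0.05 with the diet and -0.63 against young controls.

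Several subunits of complex IV exist as a general form and a form typical of heart, skeletal muscle or brown fat. The general forms had age estimates below 0 and overlapping groups. Cox6a1 read 69140, 74361, 79684, 90732 and 112866 in young controls 1 to 5, 65688, 57845, 77490, 101303 and 84405 in old controls, and 64535, 76552, 60332, 107165 and 101346 in calorie-restricted animals, with a log2 age difference of -0.15 ± 0.20 (limma adjusted p = 0.786). Cox7a2 read 26473, 42725, 48217, 68207 and 59142 in young controls, 31164, 25647, 30127, 53770 and 39744 in old controls, and 35762, 47960, 30358, 64187 and 64227 in calorie-restricted animals, with -0.42 ± 0.28 (limma adjusted p = 0.516). Both were highest in animals 4 and 5 of every group. Cox8a read 57744, 65723, 71999, 67609 and 58912 in young controls, 58195, 56875, 64319, 53850 and 48612 in old controls, and 59251, 71634, 53452, 62151 and 51669 in calorie-restricted animals, with -0.19 ± 0.13 (limma adjusted p = 0.507). Cox4i1 read 77589, 83676, 90780, 117254 and 100468 in young controls, 68322, 58432, 82018, 105369 and 105042 in old controls, and 77072, 99505, 85750, 125906 and 110722 in calorie-restricted animals, with -0.19 ± 0.19 (limma adjusted p = 0.706). Their diet estimates were 0.07 for Cox6a1, 0.41 for Cox7a2, 0.08 for Cox8a and 0.27 for Cox4i1.

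The muscle-type forms were at or near background. Cox6a2 was above the floor on 0 of 15 arrays at each of its 2 probe sets. Cox8b was above it on 7 arrays and read 1062, 930, 727, 2904 and 1346 in young controls 1 to 5, 1094, 623, 1448, 1945 and 3178 in old controls, and 919, 115, -280.4, 1130 and 2285 in calorie-restricted animals. The highest Cox8b values were those of young control 4, old control 5 and calorie-restricted animal 5, and no difference passed (log2 age difference 0.21 ± 0.33, limma adjusted p = 0.810). Cox8c, a form known from testis, stood near the floor on its 12 arrays, with a log2 age difference of 0.18. Cox7a1 and Cox4i2 were not among the named probe sets.

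The remaining tested subunits were Cox7c, Cox6c and Cox5a, with log2 age differences of -0.49, -0.48 and -0.24, diet differences of 0.24, 0.26 and 0.01, and differences from young controls of -0.25, -0.23 and -0.23. None passed. A further probe set of Cox7c was above the floor on 1 array and a further one of Cox7b on 0.

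Complex V, ATP synthase, had 15 probe sets of 13 genes, of which 13 were tested, and 0 passed in any comparison. The largest age difference was that of Atp5md, a small membrane subunit (probe set aa109866_s_at). It read 33503, 41638, 42119, 44841 and 36908 in young controls 1 to 5, 32577, 19881, 29293, 25613 and 23218 in old controls, and 39564, 41661, 20829, 38634 and 39870 in calorie-restricted animals. All old values lay below all young values, 4 of 5 calorie-restricted values lay within the young range, and calorie-restricted animal 3 lay near the lowest old control. The log2 differences were -0.62 ± 0.19 with age (limma adjusted p = 0.0803), 0.45 ± 0.19 with the diet (limma adjusted p = 0.288) and -0.18 ± 0.19 against young controls (limma adjusted p = 0.692). Without calorie-restricted animal 3 the age difference passed at a limma adjusted p of 0.0143 and the diet difference was 0.63 at 0.0370.

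Atp5g1 encodes one copy of the c subunit, which forms the rotating ring and is made from several genes with the same mature protein, so its probe set cannot be taken as unique. It read 16418, 15514, 17542, 24419 and 19168 in young controls 1 to 5, 14994, 18264, 17181, 24639 and 22163 in old controls, and 16432, 17973, 19442, 24019 and 23336 in calorie-restricted animals. Its age difference was the smallest of complex V, 0.06 ± 0.17 (limma adjusted p = 0.904), and its 3 groups overlapped, with animal 4 highest in each.

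The catalytic head was represented by Atp5a1, Atp5b and Atp5c1 (the alpha, beta and gamma subunits), with Atp5o, the protein that ties the head to the stalk. The age difference was -0.28 and -0.46 at the 2 probe sets of Atp5a1, one on each array type. For Atp5b it was -0.26 at each of 2 probe sets, of which one was above the floor on 11 arrays. It was -0.46 for Atp5c1, whose old values all lay below its young values, as they did at the Atp5a1 probe set with the larger difference, and -0.10 for Atp5o.

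The membrane part and its stalk had age differences of -0.61 for Atp5l, -0.54 for Atp5j2, -0.38 for Atp5j, -0.34 for Atp5mpl and -0.33 for Atp5k. Their diet differences were 0.38, 0.29, 0.03, 0.10 and 0.06 in that order, beside 0.23 and 0.19 for Atp5a1, 0.28 and 0.19 for Atp5b, 0.09 for Atp5c1, 0.10 for Atp5o and 0.07 for Atp5g1. Against young controls, Atp5c1 stood at -0.36 and Atp5j at -0.35, the lowest of the complex, and Atp5b at 0.02 and -0.07. Atp5d was above the floor on 4 arrays and Atp5pb on 1, and neither was tested. Atpif1, the inhibitor that blocks the reverse reaction of the synthase, was outside the naming rule under its table symbol. It read 12593, 13066, 14005, 15360 and 17143 in young controls 1 to 5, 11091, 8205, 12178, 12670 and 10273 in old controls, and 9957, 11541, 6871, 10298 and 14766 in calorie-restricted animals, with log2 differences of -0.41 with age (limma adjusted p = 0.264) and -0.05 with the diet.

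**Figure D3:**
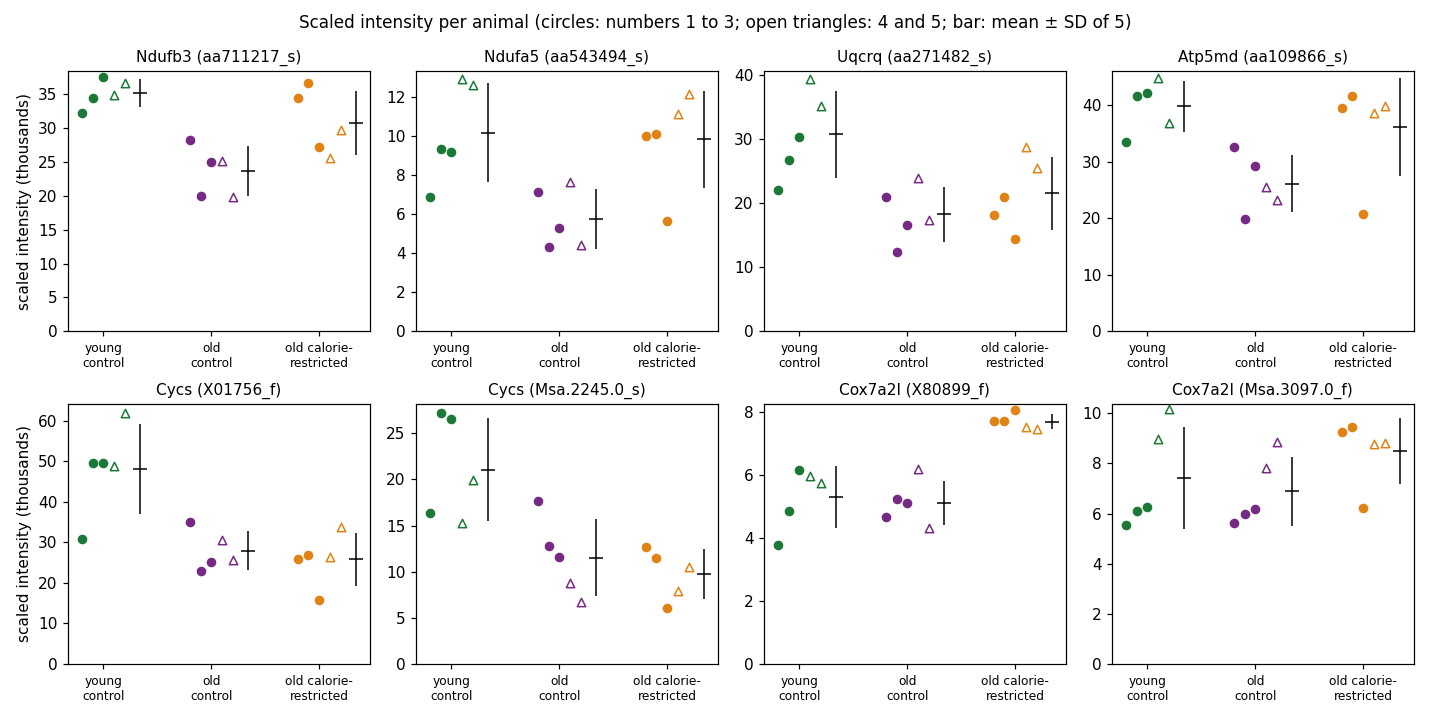
Scaled intensity, in arbitrary units, of 8 probe sets in each animal (circles, numbers 1 to 3; open triangles, numbers 4 and 5; bars, mean ± SD of 5). Old controls lie below all young controls for Ndufb3 and Atp5md, calorie-restricted animals stay low for both Cycs probe sets, and all 5 calorie-restricted animals lie highest for the first Cox7a2l probe set.

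Cytochrome c carries electrons from complex III to complex IV and, when released from mitochondria, starts the apoptosome. Cycs had 2 probe sets, both on the second array type. Probe set X01756_f_at read 30906, 49679, 49485, 48748 and 61914 in young controls 1 to 5, 35034, 23034, 25275, 30518 and 25734 in old controls, and 25872, 26991, 15810, 26371 and 33834 in calorie-restricted animals. Young control 1 lay among the older animals, and the other 4 young controls lay above all 10 of them. The mean fell with age from 48146 ± 11082 (SD, n = 5) to 27919 ± 4822, a log2 difference of -0.77 ± 0.21 (limma adjusted p = 0.0421). The diet difference was -0.14 ± 0.21 (limma adjusted p = 0.820), and calorie-restricted animals were lower than young controls by -0.91 ± 0.21 (limma adjusted p = 0.0136).

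The second probe set of Cycs had the same signs. It read 16382, 27158, 26489, 15324 and 19941 in young controls 1 to 5, 17706, 12818, 11583, 8816 and 6767 in old controls, and 12676, 11477, 6048, 7955 and 10561 in calorie-restricted animals. All calorie-restricted values lay below all young values, while old control 1 lay inside the young range. The log2 differences were -0.90 ± 0.26 with age (limma adjusted p = 0.0603), -0.22 ± 0.26 with the diet (limma adjusted p = 0.764) and -1.12 ± 0.26 against young controls (limma adjusted p = 0.0160). With the animal number as a block the age difference was called at both probe sets (limma adjusted p = 0.0451 and 0.0454).

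The calls of Cycs differed in how firm they were. The age call of the first probe set was lost when any 1 of 11 animals was left out (calorie-restricted animals 1, 2 and 4, and all old and young controls but number 1), with limma adjusted p of 0.0558 to 0.117 and log2 differences that stayed between -0.92 and -0.67 over all 15 such fits. The difference of calorie-restricted from young controls was called in 15 of 15 such fits for the first probe set. For the second it was called in 13 of 15, and was lost without young control 2 or 3 (limma adjusted p = 0.0512 to 0.0538). Cycs has many processed pseudogenes, and the suffixes f and s mark probe sets that may share sequence with related transcripts, so signal from near copies cannot be told apart. Of the 54 tested members, 16 carried the suffix f and 33 the suffix s.

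Many nuclear genes of the chain are known targets of the factor NRF1, and Cycs is a textbook case, with sites for NRF1 and CREB in its promoter. The stretches before the transcription start are therefore shown for Cycs, for 3 other members that hold the same NRF1 core, and for Ndufb3, the other member that fell with age. They are from RefSeq (GRCm38.p6), 5′ to 3′ in the direction of the gene, and capitals mark the motif.
Cycs, NRF1 core (chr6:50566593-50566660, minus strand): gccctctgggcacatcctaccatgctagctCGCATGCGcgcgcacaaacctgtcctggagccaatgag
Cycs, CREB site (chr6:50566701-50566768, minus strand): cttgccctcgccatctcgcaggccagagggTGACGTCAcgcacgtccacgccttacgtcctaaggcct
Atp5l, NRF1 core (chr9:44920946-44920992, minus strand): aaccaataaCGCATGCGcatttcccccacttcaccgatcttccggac
Atp5k, NRF1 core (chr5:108434411-108434478, minus strand): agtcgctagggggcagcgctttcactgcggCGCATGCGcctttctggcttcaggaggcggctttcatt
Cox6a1, NRF1 core (chr5:115349082-115349149, minus strand): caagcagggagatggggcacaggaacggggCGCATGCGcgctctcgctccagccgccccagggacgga
Ndufb3, no motif marked (chr1:58586329-58586396, plus strand): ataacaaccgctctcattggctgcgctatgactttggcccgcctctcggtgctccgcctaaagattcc
In Cycs the NRF1 core began 61 bases and the CREB site 169 bases before the start, whereas in Atp5l the core began 241 bases before it.

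The 250 bases before the start were searched on both strands for 4 motifs, none of which contains another. Of the 59 member genes, 48 had a promoter in the table, with 52 promoters. The NRF1 core CGCATGCG, which reads the same on both strands, was in 7 of 52 (13.5%), against 1.55% of all 32851 promoters, in Atp5j, Atp5k, Atp5l, Cox6a1, Cycs, Ndufa11 and Ndufaf4. The CREB site TGACGTCA, also the same on both strands, was in 5 of 52 (9.6%) against 1.55%, in Cycs, Ndufa10, Ndufa11, Ndufb2 and Uqcrfs1. The ETS core CCGGAAGT was in 1 (Uqcr11, 1.9% against 2.88%) and the YY1 core AAGATGGC in 1 (Atp5j, 1.9% against 1.56%). Tested genes with the NRF1 core ranged in log2 age difference from -0.15 for Cox6a1 to -0.90 for a probe set of Cycs. A match describes letters only and shows no binding.

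Members varied together within groups. Over the 15 animals, after each group's mean was taken out, the mean correlation between pairs of members was 0.26, against 0.0034 between pairs of all tested probe sets. It was 0.66 within complex III, 0.23 within complex I, 0.17 within complex IV and 0.18 within complex V. After the means of numbers 1 to 3 and of 4 and 5 were also taken out, it was 0.28 over members, 0.34 within complex I, 0.58 within complex III, 0.30 within complex IV and 0.06 within complex V. These values share arrays and are a description. Single members followed the mean of the others to very different degrees, from 0.96 for Cox7c, 0.95 for Uqcr10, 0.95 for Uqcrq and 0.94 for Cox7a2 to -0.38 for Ndufab1 and -0.66 for the dim probe set of Atp5b, with the group means taken out. With the means of the number sets also taken out, Ndufab1 stood at 0.49 and that Atp5b probe set at -0.12, while Cox7c stood at 0.96 and Uqcr10 at 0.92.

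**Figure D4:**
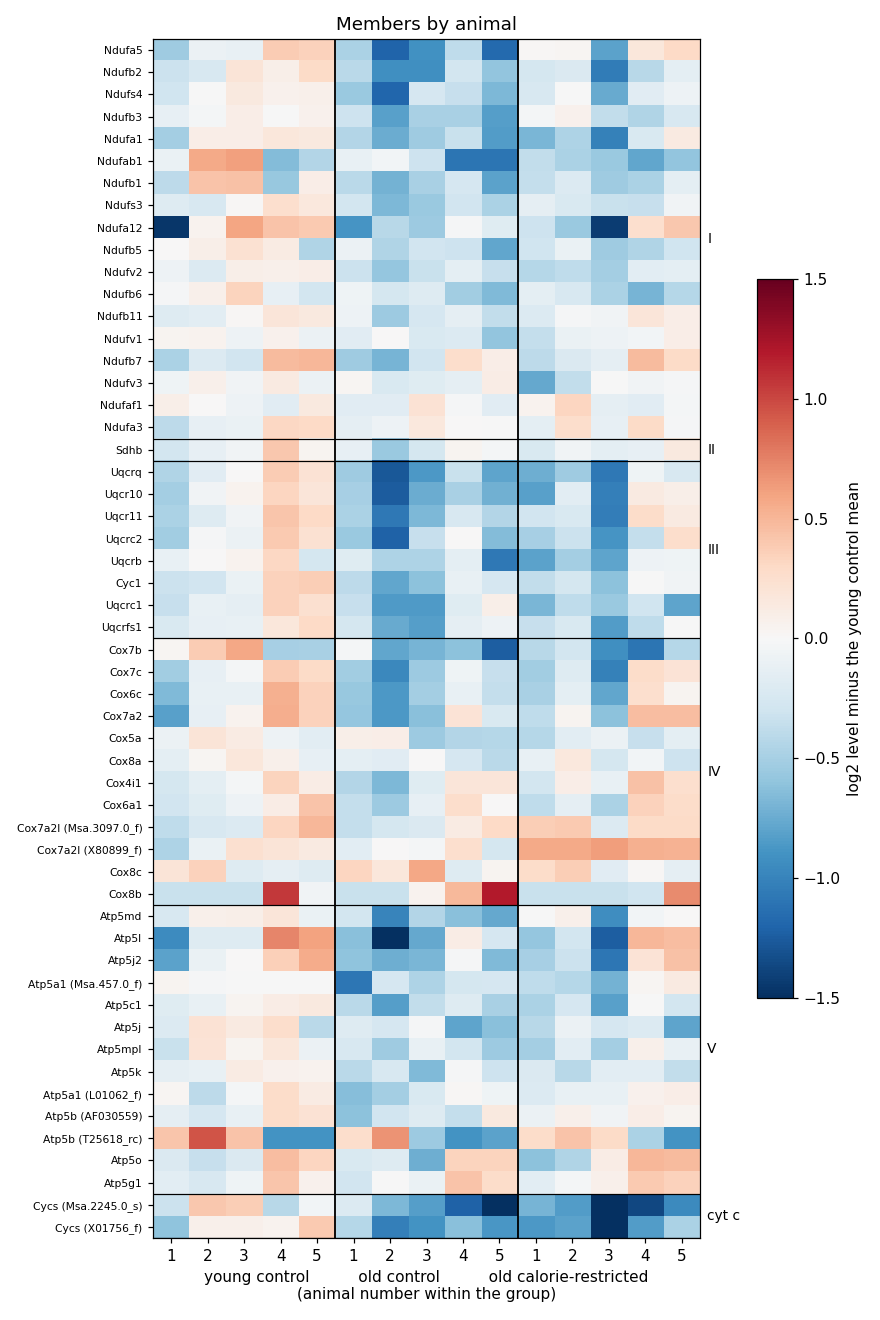
Log2 level of the 54 tested probe sets (rows, by complex) in the 15 animals (columns, by group and number) minus the young control mean, with blue lower and red higher than that mean. Young control 1, old control 2 and calorie-restricted animal 3 are blue down most rows, and the Cycs rows are blue in all 10 older animals.

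Many members also differed between numbers 1 to 3 and numbers 4 and 5. Atp5l, a membrane subunit of ATP synthase, read 24878, 41962 and 41866 in young controls 1 to 3 but 79650 and 73164 in 4 and 5, and 31988, 39720 and 20290 in calorie-restricted animals 1 to 3 but 67972 and 66029 in 4 and 5. In old controls it read 31138, 16786 and 28218, and then 51980 and 40315. In every group animals 4 and 5 lay above animals 1 to 3, and the age difference of Atp5l was -0.61 ± 0.38 (limma adjusted p = 0.482). In the fit with a term for the 2 sets of numbers, 12 members were lower with age, where 3.59% of all tested probe sets were: Ndufa5, Ndufb2, Ndufb3, Ndufs3, Ndufs4, Cyc1, Uqcr10, Uqcr11, Uqcrq, Atp5c1 and both Cycs probe sets. Under the diet 2 members were higher in that fit, Ndufa5 and Cox7a2l, where 2.1% of all tested probe sets were. Within numbers 1 to 3 alone and within 4 and 5 alone, 0 members were called with age or the diet, in fits with 3 and 2 animals a group. In these fits 1.31% and 1.11% of all tested probe sets were lower with age, and 2.55% and 0.02% higher with the diet.

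The array controls for RNA quality were read in the same sets. The ratio of the 3′ to the 5′ control probe set of Gapdh was 0.956 to 1.03 in young controls 1 to 3 and 1.17 to 1.37 in 4 and 5. It was 0.934 to 1.11 and 1.14 to 1.15 in old controls, and 1.03 to 1.05 and 1.44 to 1.97 in calorie-restricted animals. The Gapdh ratio was thus higher in numbers 4 and 5 in every group, and highest in calorie-restricted animals 4 and 5. For Actb the ratio was 0.919 to 1.26 in young controls 1 to 3 and 1.37 to 1.88 in 4 and 5, and 1.15 to 1.40 and 1.78 in calorie-restricted animals. In old controls it was 1.14 to 1.41 in numbers 1 to 3 and 1.12 to 1.14 in 4 and 5, so there the Actb ratio was not higher in the second set. In numbers 4 and 5 both ratios were higher in calorie-restricted than in old controls, and both were also higher in young than in old controls. The part of this in the diet and age estimates was not tested. In numbers 1 to 3 the member median was 0.12 with the diet and -0.36 with age.

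Other mitochondrial genes were read from 5 lists. In the tricarboxylic acid cycle, 0 of 10 tested genes passed with age or the diet, with an age median of -0.30 and a diet median of -0.04. The 3 genes with the largest test statistics were Suclg1 (-0.45), Mdh1 (-0.31, the cytosolic malate dehydrogenase) and Suclg2 (-0.31). Diet estimates were negative for 6 of the 10, and for 8 of the 54 members. Of the assembly factors and regulators, 7 were tested and 0 passed (age median -0.07), among them Lrpprc, which stabilises mitochondrial transcripts, at -0.39 with age and 0.39 with the diet, Surf1, an assembly factor of complex IV, at -0.29, and the nuclear receptor Esrra at 0.33. Of mitochondrial chaperones and redox enzymes 7 were tested and 0 passed, with an age median of -0.27, and Prdx3, Hspe1 and Hspd1 stood at -0.52, -0.36 and -0.39.

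Among carriers, electron entry and membrane proteins 1 of 17 fell with age and 1 rose with the diet. Nnt, the transhydrogenase that makes mitochondrial NADPH from the proton gradient, fell from 15748 ± 2670 (SD, n = 5) to 5588 ± 2161, a log2 difference of -1.58 (limma adjusted p = 0.000305), and was 6115 ± 749 in calorie-restricted animals (-1.36 against young controls, limma adjusted p = 0.00158). Timm9, an import chaperone of the intermembrane space, rose with the diet by 0.75 (limma adjusted p = 0.0484), after an age difference of -0.52 that did not pass. Slc25a20, the carnitine carrier, stood at 0.62 with age, Slc25a4, the ADP/ATP carrier, at -0.46 and Phb at -0.53, none past the test. Of the 35 mitochondrial ribosomal genes on the arrays, 23 were tested and 20 had negative age estimates, with a median of -0.23 with age and 0.18 with the diet. Mrpl20 fell with age by -0.75 (limma adjusted p = 0.0381). Mrpl50 was lower in calorie-restricted than in young kidney by -0.53 (limma adjusted p = 0.0495), and Mrpl39 and Mrpl18 stood at -0.41 and -0.49 with age.

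Markers of other cell types moved with age beside these genes, and their part in the results was not tested. Of 16 proximal tubule genes 8 were on the arrays, all 8 were above background often enough to be tested, and 0 passed with age or the diet, with an age median of -0.12 and a summed intensity of 316510 to 513363 in young, 249586 to 467607 in old and 296941 to 435961 in calorie-restricted animals. Among genes of the loop, the distal tubule and the collecting ducts, 5 of 9 fell with age (Klk1, Defb1, Calb1, S100g and Egf) and 2 rose with the diet (Defb1 and Egf), with sums of 243394 to 313713, 206592 to 248454 and 260208 to 305948. B and plasma cell markers had 3 of 6 that rose with age and 3 that fell with the diet, with sums of 21818 to 30422, 88216 to 185644 and 27100 to 52631. Macrophage and MHC class II markers had 8 of 10 that rose with age, while 6 fell under the diet, with sums of 26440 to 39613, 79489 to 95611 and 31350 to 50952. The fibroblast and matrix list had 3 of 5 that rose with age and 1 that fell under the diet, with sums of 16485 to 23208, 37120 to 64672 and 25855 to 39381. In the muscle list 8 of 13 genes on the arrays were below the floor on all arrays and 0 of 4 tested passed, with sums of 12834 to 17229, 7924 to 13606 and 10026 to 15491. In the fat list 0 of 6 passed, with sums of 11673 to 18537, 11623 to 25506 and 8118 to 24516, and the 1 tested red blood cell gene, Hba-a1, did not pass, at 20854 to 45610, 36515 to 70540 and 20467 to 56934. Against young controls, calorie-restricted animals were lower for 1 of the 8 proximal tubule genes, Fbp1, by -0.64 (limma adjusted p = 0.0108). They were higher for 2 B and plasma cell markers and for 1 macrophage and MHC class II marker.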

How the data were processed

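Kidney RNA of 15 animals was measured on 2 array types. The deposited values are 1 intensity per probe set and array, of which 20.6% to 35.9% per array are below 0. The software behind them is not given in the sources used here. Arrays of a table were scaled to a common trimmed mean (2% off each end, factors 0.997 to 1.01). Values were then raised to a floor, the root mean square of a table's negatives (1103 and 1815), and log2 was taken. Of 13179 rows, 122 control probe sets and 16 others that were blank were left out, and 4518 above the floor on at least 5 of 15 arrays were fitted with limma 3.58.1 in R 4.3.3 (lmFit and eBayes on the 3 groups, adjusted over both tables), after a test on simulated data. Symbols of the array annotation were updated by gene number to RefSeq names (7544 of 7561). Also left out were 3 probe sets annotated to a member and another gene. In the second table some young values appear exchanged between rows of 1 target that differ only in their suffix. This class held 85 tested probe sets and 0 members, and the members' young over old ratios overlapped between tables (0.841 to 1.77, against 1.04 to 1.83).

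The members and lists were chosen with earlier results of these data known. Values in every sample are given for members called, the largest and smallest age change of each complex, cytochrome c, Cyc1 and general and muscle-type isoforms of complex IV. Of the other lists, called genes and up to 3 more by test statistic are named with their estimates. List counts used the brightest probe set of a gene. Same-numbered old and young controls deviated together in 5 of 5 pairs (r of 0.215 to 0.489). Other numbers of the same set did so as much (mean r 0.332 against 0.347). In the other comparisons 4 of 5 same-numbered pairs deviated together. The main fit was unpaired, on the groups only, and the animal number was a block in an alternative fit. Figures were drawn with matplotlib 3.10.9.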

Additional observations from a re-analysis of the deposited data

Results flagged for a closer look

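In 10 cases a single animal stood apart from the other 4 of its group, with a gap above Dixon's critical value for 5 values. Among 162 groups of 5 values chance gives about 8.1 such cases (1 in 20). Calorie-restricted animal 3 was low for Ndufa5 at 5672 (others 10035 to 12187), for Atp5md at 20829 (38634 to 41661) and for the second Cox7a2l probe set at 6224 (8778 to 9457). Young control 1 was low for Ndufa1 at 36708 (56129 to 58920) and for Ndufa12 at 4314 (12261 to 17813), and high for the Atp5a1 probe set of the second table at 45393, where the others lay between 43733 and 44059. At the same probe set old control 1 was low at 20811 (32143 to 37085). Old control 4 was high for Atp5j2 at 25457 (15461 to 16977). For Cox8b, near background, young control 4 was high at 2904 (727.2 to 1346) and calorie-restricted animal 5 at 2285 (-280.4 to 1130).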

How the results depend on the processing

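The 32 alternatives, and 1 more with the brightest probe set of each gene, kept the sign of the member medians in all 3 comparisons; the age median ran from -0.46 to -0.32. The counts of members called moved more. Lower with age, 2 members became 5 with the floor doubled, 4 with quantile normalization, 12 with the number set as a term and 5 with the replicate block, which changed no other member's call beyond Ndufa5, Uqcrq and the second Cycs probe set. They became 1 with the floor halved, without a filter, in the first table alone or without the exchanged class, and 0 in numbers 1 to 3 or 4 and 5 alone. Over all tested probe sets the percent lower with age was 2.17 in the main fit, 3.59 with the number set as a term and 2.52 with the block. It was 1.31 in numbers 1 to 3 and 1.11 in numbers 4 and 5. For the other alternatives, and with 1 animal left out, this share is not given here. The 1 member higher with the diet became 2 with the number set as a term and 0 with the floor halved, a filter at 10 arrays, no filter, quantile normalization, the first table alone, either number set alone or the brightest probe set of each gene. Against young controls the 2 lower became 6 with the number set as a term, 1 with the brightest probe set, and 0 without a filter, in the first table alone or in numbers 4 and 5 alone. In numbers 1 to 3 alone the count stayed at 2, but the members were Ndufab1 and Uqcrb, and neither Cycs probe set was called. The 1 higher became 0 with the floor halved, no filter, quantile normalization, the first table alone, numbers 4 and 5 alone or the brightest probe set. The called probe sets of Cycs and Cox7a2l are all on the second table, and the cause of the other changes was not tested. Leaving out 1 animal at a time gave 0 to 8 lower with age, 0 to 2 higher with the diet, 1 to 2 lower and 0 to 1 higher against young controls, and medians of -0.46 to -0.35, 0.09 to 0.22 and -0.31 to -0.14. No member that was called reversed its sign. Of 162 uncalled or called estimates, 51 changed sign in at least 1 alternative, and the largest of them was 0.27 in absolute value. Of 54 estimates in each comparison, 7 changed sign with age, 24 with the diet and 20 against young controls. Probe sets near the floor, such as Cox8b and Cox8c, understate differences.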
